A study of Homo sapiens with 12 samples.

Results

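The EGR and NR4A immediate early genes were followed in keratinocytes exposed to hydrogen peroxide. They are 9 genes, EGR1, EGR2, EGR3, NR4A1, NR4A2, NR4A3, IER2, ARC and RASD1, out of 58735 genes counted and 16618 genes tested, and all 9 passed the filter on low counts. They were chosen by name, because EGR1, NR4A1, ARC and RASD1 had been seen to rise strongly and unequally after H2O2 in these same libraries. The H2O2 responses of all members are therefore a description given with errors and without a test. The untreated levels of EGR1, NR4A1, ARC and RASD1, from which those rises were measured, are likewise described without a test, and the untreated lines are compared by a test in the other 5 members only.

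RNA was sequenced from HaCaT, skin keratinocytes that became immortal in culture without a transgene, and from TIGK, gingival keratinocytes immortalized with telomerase. Both are human cell lines. Each line was left untreated in DermaLife K keratinocyte medium or given 5 mM H2O2 for 3 h. This made 4 groups of 3 libraries each, named TIGK control, TIGK H2O2, HaCaT control and HaCaT H2O2. Both lines were kept in the same medium, and skin and gingiva were each represented by 1 line. The labels do not say whether the 3 samples of a group came from separate cultures, so p-values measure the spread between these samples, which may be technical.

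In the deposited table, which uses GRCh38, EGR1 lies at chr5:138465490-138469315, EGR2 at chr10:62811996-62919900 and EGR3 at chr8:22687659-22693302. NR4A1 lies at chr12:52022832-52059507, NR4A2 at chr2:156324432-156342348 and NR4A3 at chr9:99821855-99866891. IER2 lies at chr19:13150415-13154908, ARC at chr8:142611044-142614472 and RASD1 at chr17:17494437-17496395. The members are thus spread over 8 chromosomes, with EGR3 and ARC on the same chromosome but far apart.

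Immediate early genes are transcribed within minutes of a stimulus from factors that are already present in the cell, without new protein synthesis. Many carry a serum response element, at which serum response factor and its ETS partners of the ELK family answer to ERK signalling, or a cAMP response element, at which CREB and its relatives bind. In keratinocytes such genes are known to respond to growth factors, wounding, ultraviolet light and oxidants, and their messengers are usually short lived.

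EGR1, EGR2 and EGR3 encode zinc finger transcription factors that bind the same GC-rich element. NR4A1, NR4A2 and NR4A3 encode orphan nuclear receptors whose activity is set mainly by how much of them is made. IER2 encodes a small nuclear protein. ARC encodes a cytoskeleton-associated protein best known from synapses, and RASD1 a Ras-like GTPase that is induced by dexamethasone.

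Promoter sequences from RefSeq (GRCh38.p14) were matched to 6 of the 9 members, all but EGR3, NR4A2 and ARC. The 250 bases before each listed start were searched on both strands for the CArG box, which is a run of A and T between a pair of C and a pair of G and the core of the serum response element. They were searched in the same way for TGACG, the core of the cAMP response element. Below, bases 150 to 31 before the start are printed 5′ to 3′ on the strand of the gene, at the start of the reference transcript. Capitals mark CArG boxes and TGACG or its reverse complement CGTCA. EGR1 and EGR2 are shown because they hold CArG boxes, NR4A3 because it holds the most copies of TGACG, and RASD1 because of its large change in HaCaT.
EGR1, chr5:138465329-138465448, plus strand: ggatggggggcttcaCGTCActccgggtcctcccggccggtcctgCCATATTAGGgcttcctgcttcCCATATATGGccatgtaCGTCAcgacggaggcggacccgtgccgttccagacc
EGR2, chr10:62816397-62816516, minus strand: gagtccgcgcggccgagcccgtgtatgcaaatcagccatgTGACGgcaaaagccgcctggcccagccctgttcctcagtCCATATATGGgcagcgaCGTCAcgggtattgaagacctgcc
NR4A3, chr9:99821735-99821854, plus strand: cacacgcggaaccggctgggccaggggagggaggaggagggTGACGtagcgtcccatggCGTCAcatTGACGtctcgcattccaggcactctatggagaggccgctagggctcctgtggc
RASD1, chr17:17496426-17496545, minus strand: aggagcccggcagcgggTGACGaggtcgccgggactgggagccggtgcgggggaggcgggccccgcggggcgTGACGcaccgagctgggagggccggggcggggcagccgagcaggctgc

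The EGR1 promoter held 2 CArG boxes, CCATATTAGG at position -105 and CCATATATGG at position -83, counted from the start. EGR2 held 1, with the same letters CCATATATGG, at position -71. Of 35116 human promoters of the same length, 1.16% held a CArG box and 0.0313% held 2 or more. TGACG was found 2 times at EGR1, 2 times at EGR2, 2 times at RASD1, 1 time at IER2 and 4 times at NR4A3, where the fourth copy lies at position -25, past the printed stretch. Of all promoters 21.2% held it at least once, 4.76% 2 or more times and 0.236% 4 or more times.

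Neither of the NR4A1 starts listed was that of the reference transcript, and neither held TGACG or a CArG box. The core of the ETS element, CCGGAA, occurred 1 time at NR4A1 and 1 time at IER2, against 14.5% of all promoters with at least 1 copy. GCGNGGGCG, the element of the EGR proteins themselves, occurred 1 time, at EGR1, at position -198, against 8.41% of all promoters.

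The full palindrome TGACGTCA, which contains TGACG (1.65% of promoters), the NR4A element AAAGGTCA (1.05%) and TATAAA on the sense strand (6.8%) were found at 0 of these starts. A match of letters is a description of these windows and not a site of binding, and a missing match says only that the letters are not in this stretch.

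Library totals lay between 30426401 and 49034244 counts, and replicates differed by more than counting noise in all 12 pairs. The 8 keratinocyte markers, among them KRT5, KRT14 and TP63, were high in every group, with a lowest group mean of 8032 normalized counts. Of the 5 fibroblast markers COL1A2 was at 0 in all 12 libraries, and their sum was 797 to 932 normalized counts in TIGK and 311 to 418 in HaCaT. The 3 immune cell markers summed to 87.8 to 123 in TIGK and to at most 13.8 in HaCaT, the 4 melanocyte markers to at most 93.8 and the 2 endothelial markers to at most 10.3 in any library. The share of counts on mitochondrial genes moved with treatment, from 3.33-3.45% to 1.39-1.5% in TIGK and from 6.10-6.26% to 3.30-3.51% in HaCaT. The part of these marker sums and shares in the results that follow was not tested.

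EGR1 reached a like level in both lines after H2O2 from unequal starting points. In units of normalized counts, which are counts scaled to a common library size, the 3 TIGK control libraries held 4153, 3415 and 3596 and the 3 TIGK H2O2 libraries 59585, 51305 and 60961. The HaCaT control libraries held 778, 1019.9 and 1103 and the HaCaT H2O2 libraries 63864, 66079 and 54325. All treated libraries stood far above all untreated ones, untreated HaCaT lay below untreated TIGK without overlap, and the treated libraries of both lines overlapped. In TIGK the mean went from 3721 ± 384 to 57284 ± 5223 (SD, n = 3), a log2 fold change of 3.94 (SE 0.115), or 15.4-fold. In HaCaT it went from 967 ± 169 to 61422 ± 6246 (SD, n = 3), a log2 fold change of 5.99 (SE 0.128), or 63.5-fold. The HaCaT change was thus larger by 2.05 on the log2 scale (95% interval of TIGK minus HaCaT -2.37 to -1.74), although both lines ended at a like level. In such bulk samples, fewer cells expressing a gene and less of its RNA per cell cannot be told apart.

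EGR2, a homolog of EGR1 best known from myelination and T cell tolerance, kept its difference between the lines. It was counted at 162, 169 and 153 in TIGK control and 2445, 2352 and 2476 in TIGK H2O2 libraries. In HaCaT it went from 36.7, 23.2 and 24.7 to 482, 658 and 607. The 4 groups did not overlap, and their order from low to high was HaCaT control, TIGK control, HaCaT H2O2 and TIGK H2O2. The log2 fold changes were 3.91 (SE 0.12) in TIGK and 4.32 (SE 0.154) in HaCaT. Their difference, TIGK minus HaCaT, was -0.41 (95% interval -0.85 to 0.03). Without HaCaT control replicate 1 the difference was -0.68 (95% interval -1.18 to -0.18). Without HaCaT H2O2 replicate 1 it was -0.47 (95% interval -0.85 to -0.08). As the members were chosen with unequal rises in view, intervals of such differences describe precision and are not read as a test.

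EGR3, another homolog with the same DNA element, showed the reverse order of the untreated lines. The TIGK control libraries held 139, 106 and 152 normalized counts and the TIGK H2O2 libraries 2020.2, 2373 and 2124. The HaCaT control libraries held 349.9, 333 and 307 and the HaCaT H2O2 libraries 475, 824 and 617. The groups did not overlap, so EGR3 was lowest in untreated TIGK and highest in treated TIGK, with both HaCaT groups between. Its log2 fold change was 4.04 (SE 0.167) in TIGK and 0.95 (SE 0.151) in HaCaT, a difference of 3.09 (SE 0.223). HaCaT H2O2 replicate 2 was the highest of its group, and without it the HaCaT value was 0.69 on the log2 scale.

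NR4A1, also called NUR77, is the best studied member of its family and is known for roles in apoptosis and metabolism. It was counted at 304, 308 and 284 in TIGK control and 8849, 8681 and 9146 in TIGK H2O2 libraries. HaCaT control libraries held 182, 231 and 200.4 and HaCaT H2O2 libraries 4343, 5117 and 4697. No groups overlapped, and TIGK was the higher line both before and after H2O2. The mean went from 299 ± 12.7 to 8892 ± 235 (SD, n = 3) in TIGK, 29.8-fold, and from 204 ± 24.8 to 4719 ± 387 (SD, n = 3) in HaCaT, 23.1-fold. The log2 fold changes of 4.89 (SE 0.0832) and 4.54 (SE 0.0848) differed by 0.36 (95% interval 0.11 to 0.60).

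NR4A2, known as NURR1 and needed for dopamine neurons, changed by less. TIGK control libraries held 48.8, 46.6 and 102 normalized counts and TIGK H2O2 libraries 231, 199 and 201. HaCaT control libraries held 84.8, 100.6 and 95.8 and HaCaT H2O2 libraries 602, 514 and 529.6. TIGK control replicate 3 stood at about the level of untreated HaCaT, so the untreated lines overlapped, while treated HaCaT was above all other libraries. The log2 fold change was 1.67 (SE 0.217) in TIGK, or 2.13 without TIGK control replicate 3, and 2.55 (SE 0.204) in HaCaT. The difference, TIGK minus HaCaT, was -0.88, or -0.42 (95% interval -0.91 to 0.07) without that library.

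NR4A3, the third orphan receptor of the family, went in opposite directions in the lines. It was counted at 59.0, 60.1 and 61.7 in TIGK control and 80.1, 93.3 and 83.1 in TIGK H2O2 libraries. In HaCaT control it stood at 77.2, 102 and 94.8 and in HaCaT H2O2 at 36.7, 43.1 and 43.8. Treated HaCaT was the lowest group, below all other libraries, and treated TIGK overlapped untreated HaCaT. The log2 fold changes were 0.50 (SE 0.218) in TIGK and -1.14 (SE 0.227) in HaCaT, a difference of 1.64 (95% interval 0.98 to 2.30).

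IER2 changed in the same direction in both lines, and by more in TIGK. Its TIGK control libraries held 2497, 2138 and 2107 and TIGK H2O2 libraries 14078, 12463 and 14269. HaCaT control libraries held 1949.8, 1869.7 and 1819.5 and HaCaT H2O2 libraries 6873, 8001 and 7976. The untreated lines lay close together without overlap, and after H2O2 TIGK was clearly the higher line. The log2 fold change was 2.60 (SE 0.0782) in TIGK and 2.02 (SE 0.0772) in HaCaT, a difference of 0.58 (95% interval 0.36 to 0.80).

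ARC was nearly absent from untreated HaCaT, at 16.0, 3.32 and 8.89 normalized counts, which came from 21, 3 and 9 reads. The HaCaT H2O2 libraries held 96.8, 174 and 167. TIGK control libraries held 182, 211 and 172 and TIGK H2O2 libraries 289, 283 and 245. Treated HaCaT thus reached the range of untreated TIGK, with 1 library inside it, and treated TIGK lay above both. The log2 fold change was 3.84 (SE 0.324) in HaCaT and 0.53 (SE 0.223) in TIGK, with a difference, TIGK minus HaCaT, of -3.31 (SE 0.403). With so few reads in untreated HaCaT the size of its change rests on single libraries. Without HaCaT control replicate 1 it was 4.52, with a difference of -3.99, and without HaCaT control replicate 2 it was 3.49, with a difference of -2.97.

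RASD1 showed the same pattern of a low untreated HaCaT level. HaCaT control libraries held 11.5, 7.74 and 4.94 normalized counts, from 15, 7 and 5 reads, and HaCaT H2O2 libraries 200.3, 236 and 285. TIGK control libraries held 109, 59.1 and 89.9 and TIGK H2O2 libraries 116, 194 and 190.0. The 4 groups did not overlap, and treated HaCaT was the highest. The log2 fold change was 4.83 (SE 0.333) in HaCaT against 0.96 (SE 0.249) in TIGK, a difference, TIGK minus HaCaT, of -3.87 (SE 0.429), the largest among the members.

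**Figure D1:**
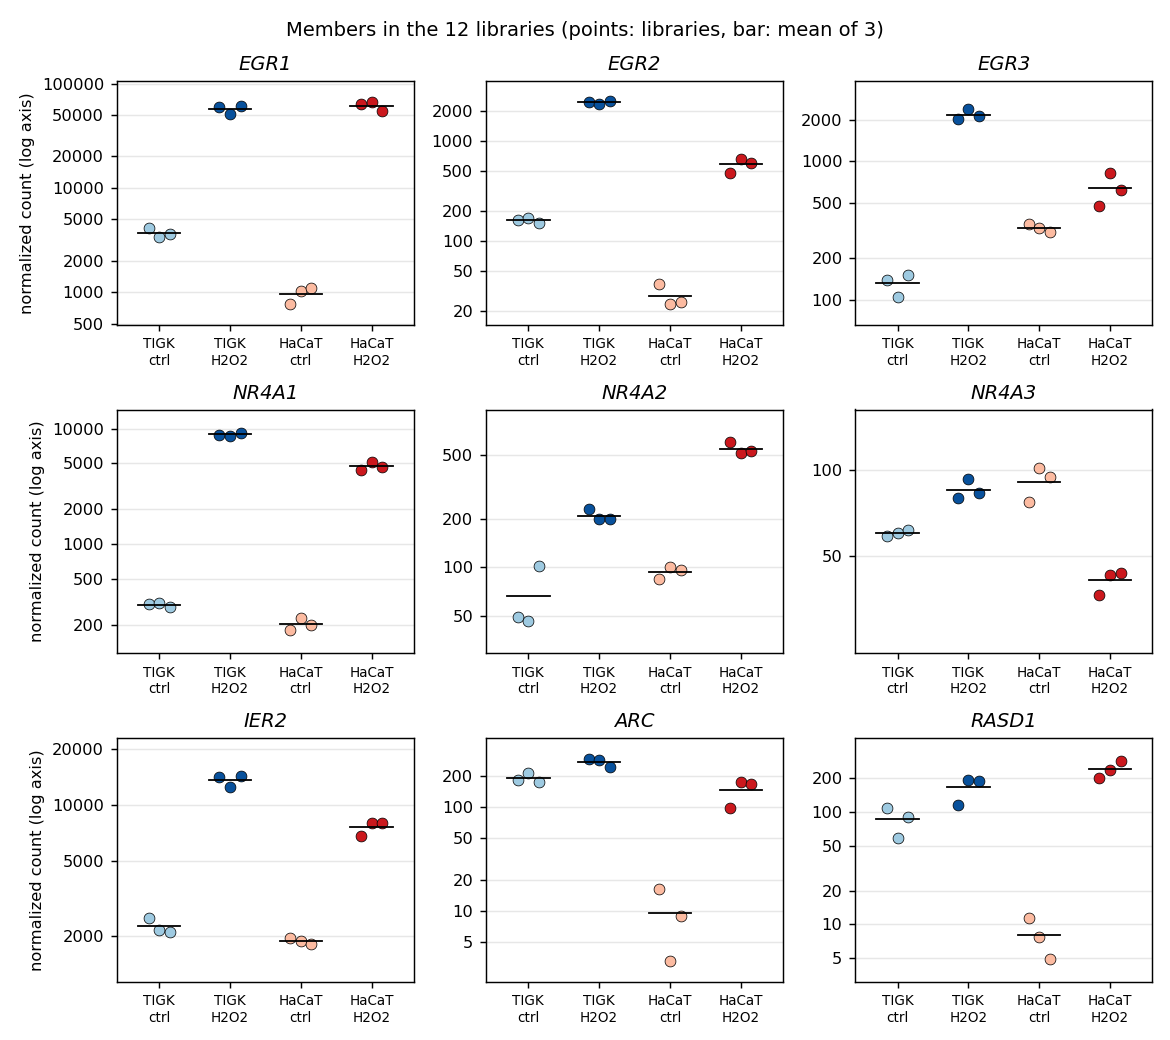
Normalized counts of the 9 members in each library, with 1 panel per gene, the 4 groups on the horizontal axis, a log vertical axis, points for libraries and a bar for the mean of 3. EGR1 ends at a like level in both treated groups, ARC and RASD1 are low in untreated HaCaT, and NR4A3 is lowest in treated HaCaT.

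Side by side, the responses did not fall into 1 pattern. In TIGK all 9 members were higher in treated than in untreated libraries without overlap, while 25.7% of all genes tested were. In HaCaT 8 members were higher without overlap (29.8% of all genes) and NR4A3 was lower (24.1%). Since the choice of members used these contrasts, nothing is read from the counts. By log2 fold change among the 16618 genes, NR4A1 ranked 3 from the highest in TIGK, EGR3 6, EGR1 8 and EGR2 10. In HaCaT EGR1 ranked 2, RASD1 3, NR4A1 8, EGR2 10 and ARC 20.

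EGR1, EGR2, NR4A2, ARC and RASD1 had the larger estimated increase in HaCaT, and EGR3, NR4A1 and IER2 the larger one in TIGK. NR4A3 went up in TIGK (log2 fold change 0.50) and down in HaCaT (-1.14), with the larger change in HaCaT. Both families were thus split between the lines. With all libraries EGR2 was the member whose interval of the difference included 0.

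**Figure D2:**
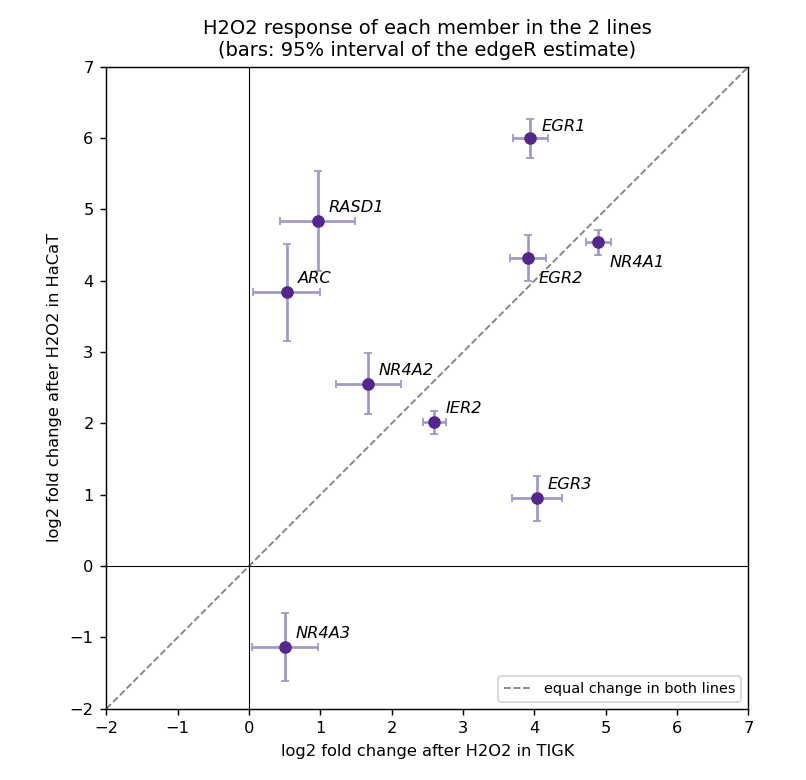
Log2 fold change after H2O2 of each member in TIGK (horizontal) and HaCaT (vertical), with bars for the 95% interval of the edgeR estimate and a dashed line of equal change. EGR1, RASD1, ARC and NR4A2 lie above the line, and EGR3 and NR4A3 lie well below it, NR4A3 with a negative value in HaCaT.

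The comparison of the untreated lines asked where the members stood before H2O2. Without overlap of the libraries 6 members were lower in untreated HaCaT (37% of all genes tested), namely EGR1, EGR2, NR4A1, ARC, RASD1 and IER2. EGR3 and NR4A3 were higher without overlap (36.2%), and NR4A2 overlapped. The rises for which EGR1, NR4A1, ARC and RASD1 were picked had been measured against these same control libraries, so the ratios of these 4 genes carry no test. Of the other 5 members 2, EGR2 and IER2, were lower in HaCaT at an adjusted p under 0.01 by edgeR's quasi-likelihood test and 1, EGR3, was higher, while 30.8% of all genes tested were lower and 29.1% higher. A change of either kind was thus common between the lines, with 59.9% of all genes called.

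ARC had the largest ratio, 20.04-fold lower in untreated HaCaT, with a log2 ratio of -4.21 (SE 0.318). Without HaCaT control replicate 1 that log2 ratio was -4.89, and without HaCaT control replicate 2 it was -3.87. RASD1 was 10.7-fold lower (log2 ratio -3.35 (SE 0.352)), and EGR1 3.85-fold lower (log2 ratio -1.95 (SE 0.112)). The ratio of NR4A1 was smaller, -0.56 (SE 0.0943) on the log2 scale. Among the members tested, EGR2 was 5.71-fold lower (log2 ratio -2.47 (SE 0.174), edgeR adjusted p = 2.34e-10). EGR3 was 2.50-fold higher in untreated HaCaT (log2 ratio 1.32 (SE 0.173), edgeR adjusted p = 1.46e-06). In each of these 6 genes every HaCaT library lay on the same side of every TIGK library.

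IER2 was lower in untreated HaCaT by a log2 ratio of -0.26 (SE 0.0766), with an edgeR adjusted p of 0.00596. This call was lost without any 1 of 7 libraries, namely TIGK control replicates 1 (adjusted p = 0.0553) and 2 (0.0113), TIGK H2O2 replicates 2 (0.0102) and 3 (0.0142), HaCaT control replicates 2 (0.0199) and 3 (0.0276) and HaCaT H2O2 replicate 2 (0.0132), all by edgeR. Over all alternatives its adjusted p ran from 0.000438 to 0.0553. NR4A3 (0.59, edgeR adjusted p = 0.0218) and NR4A2 (0.50, edgeR adjusted p = 0.0602) did not pass the limit. Without TIGK control replicate 3 the NR4A2 ratio was 0.97 and passed it, at an edgeR adjusted p of 0.000182, and its adjusted p ran from 0.000182 to 0.251 over the alternatives.

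After H2O2 the order of the lines differed from gene to gene. Of the 9 members 2, NR4A2 and RASD1, were higher in treated HaCaT than in treated TIGK without overlap (35.8% of all genes tested), and 6 were lower (35.6%). The log2 ratio of EGR1 was 0.10 (95% interval -0.11 to 0.31), with overlapping libraries, and -0.02 without TIGK H2O2 replicate 2. Those of EGR2 and EGR3 were -2.06 (SE 0.106) and -1.77 (SE 0.142), so EGR3, the higher one in untreated HaCaT, was the lower one there after treatment. NR4A3, which did not pass the limit between the untreated lines, had a log2 ratio of -1.05 (SE 0.228). The estimate for RASD1 went from a level below that of untreated TIGK to a log2 ratio of 0.52 (SE 0.235) above treated TIGK. The remaining log2 ratios were -0.91 for NR4A1, -0.84 for IER2, -0.90 for ARC and 1.39 for NR4A2.

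**Figure D3:**
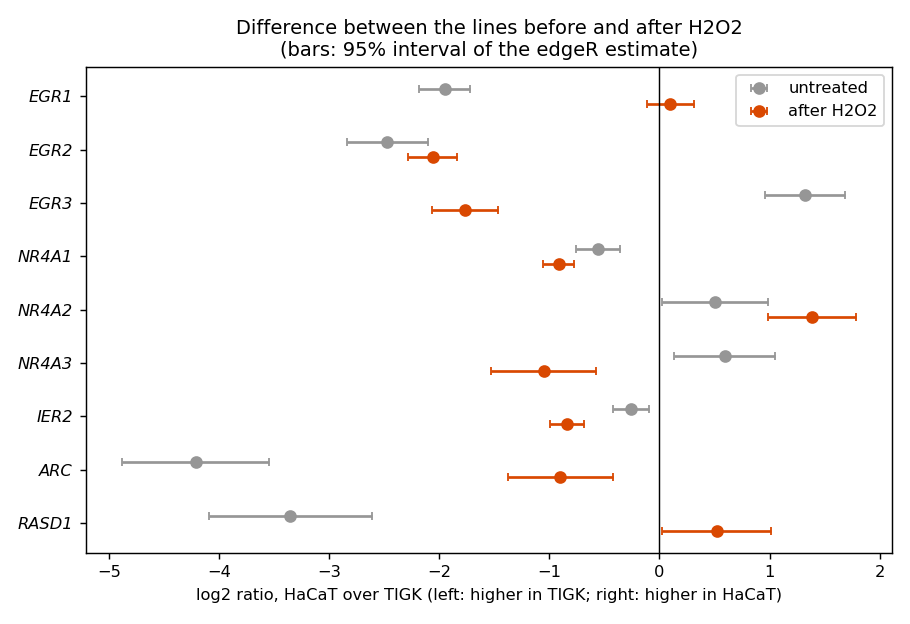
Log2 ratio of HaCaT over TIGK for each member, untreated in grey and after H2O2 in orange, with bars for the 95% interval of the edgeR estimate. The ratio of EGR1 lies at -1.95 before and 0.10 after H2O2, and the estimates of EGR3, NR4A3 and RASD1 have opposite signs before and after it.

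Levels of different genes were compared per length, as TPM, which are counts divided by the gene length in the deposited table and scaled to the same total in each library. EGR1 stood at 128 ± 10.9 TPM in TIGK control and 1991 ± 174 in TIGK H2O2, and at 29.5 ± 5.17 in HaCaT control and 1883 ± 247 in HaCaT H2O2 (SD, n = 3). It made up 94.3% ± 0.411 of the summed TPM of the 3 EGR genes in TIGK control and 94.3% ± 0.61 in TIGK H2O2 (SD, n = 3). In HaCaT its share went from 79.9% ± 4.29 to 98.5% ± 0.307 (SD, n = 3), and that of EGR3 from 18% ± 3.5 to 0.664% ± 0.167. EGR2 held at most 3.96% of the sum in any library with these lengths. With the lengths of the reference transcripts, an alternative chosen after seeing the data, its mean share was 4.29% ± 0.513 in TIGK control and 4.18% ± 0.254 in TIGK H2O2. That of EGR1 was then 93.4% ± 0.479 and 93.3% ± 0.678 (SD, n = 3). Per length IER2 was the highest member in untreated HaCaT, at 58.6 ± 2.05 TPM, and second to EGR1 in TIGK control at 79.0 ± 5.72 TPM (SD, n = 3).

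After H2O2 EGR1 was highest in both lines and IER2 next, at 483 ± 33.2 TPM in TIGK and 238 ± 12.1 in HaCaT (SD, n = 3). NR4A1 followed, at 133 ± 3.21 and 62.0 ± 4.22 TPM, and these ranks were the same with the lengths of the reference transcripts. ARC and RASD1 stood at 0.301 ± 0.204 and 0.441 ± 0.179 TPM in untreated HaCaT, and NR4A3 was the lowest member after treatment in both lines, at 1.48 ± 0.127 and 0.625 ± 0.0365 TPM.

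The NR4A family was more evenly made up before treatment. With the lengths of the deposited table, NR4A1 held 61.5% ± 8.02 of the family's summed TPM in TIGK control and 42.4% ± 1.05 in HaCaT control (SD, n = 3), and 94.8% ± 0.337 and 81.6% ± 2.36 after H2O2. NR4A2 made up 35.8% ± 0.997 of the sum in HaCaT control and 17.5% ± 2.39 in HaCaT H2O2. NR4A3 held 14.3% ± 1.03 in TIGK control and 21.8% ± 0.844 in HaCaT control, and 1.05% ± 0.106 and 0.824% ± 0.0563 after H2O2 (SD, n = 3). These shares depend on the length that was used. The table gives NR4A1 a length of 7295 bases, while its reference transcript in GENCODE v44 has 2485, whereas the lengths of NR4A2 (3967 and 3472) and NR4A3 (6314 and 5604) are close to each other. With the transcript lengths, an alternative chosen after seeing the data, NR4A1 held 80.3% ± 5.56 in TIGK control and 65.5% ± 0.975 in HaCaT control, and 97.9% ± 0.14 and 91.9% ± 1.17 after H2O2 (SD, n = 3). The share of NR4A2 was then 21.6% ± 0.755 in HaCaT control and 7.71% ± 1.18 in HaCaT H2O2, and that of NR4A3 7.17% ± 0.0717 in TIGK control and 12.9% ± 0.575 in HaCaT control (SD, n = 3). By either length the share of NR4A1 was higher after H2O2 in both lines.

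**Figure D4:**
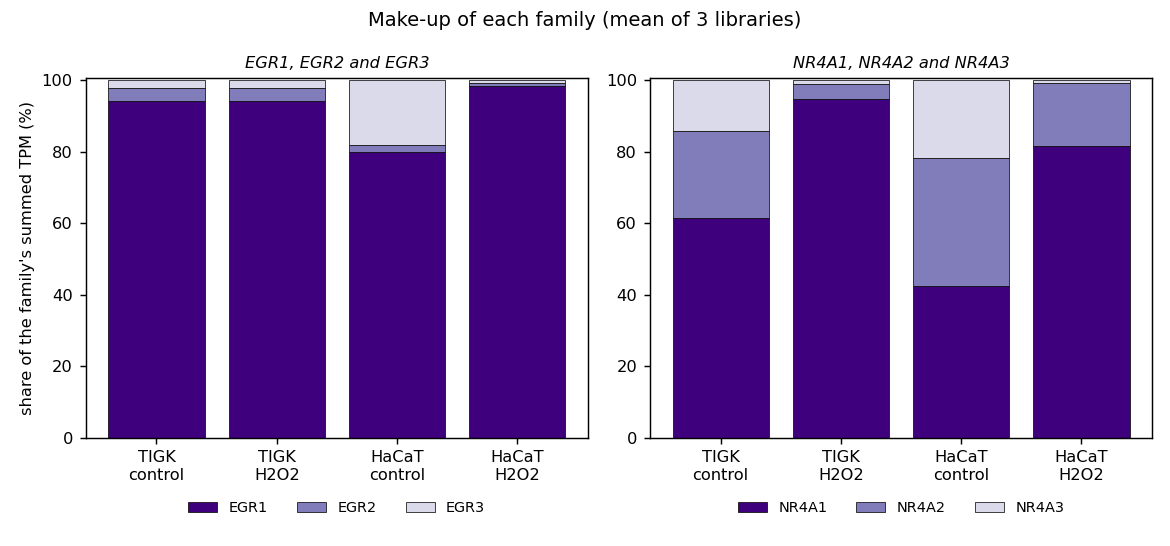
Share of each gene in the summed TPM of its family with the lengths of the deposited table, as the mean of 3 libraries in each group, from 0 to 100%. EGR1 fills 94.3% of the EGR bar in both TIGK groups and 79.9% in untreated HaCaT, and NR4A1 goes from 61.5% to 94.8% in TIGK and from 42.4% to 81.6% in HaCaT.

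Of 10 partners and homologs of the members 8 were abundant enough to be tested. By edgeR's test at an adjusted p under 0.01, which is what rose and fell mean from here on, 3 rose and 1 fell after H2O2 in each line, while 10.2% of all genes rose and 12.9% fell in TIGK, and 18.9% rose and 15.2% fell in HaCaT (34.1% called in all). NAB1, a corepressor that binds the EGR proteins, rose in both lines (log2 fold change 0.31 (SE 0.0603) in TIGK and 0.28 (SE 0.0612) in HaCaT). The HaCaT call on NAB1 (edgeR adjusted p = 0.00122) was lost with the HaCaT groups fitted alone (0.0154) and without HaCaT H2O2 replicate 1 (0.0181), with alternatives from 0.000259 to 0.0181. NAB2, its paralog and itself a known EGR target, fell in HaCaT from 1733 ± 39.5 to 1304 ± 67.5 normalized counts (SD, n = 3; log2 fold change -0.41 (SE 0.065), edgeR adjusted p = 5.65e-05). In TIGK its log2 fold change was -0.20 (edgeR adjusted p = 0.0172), and the difference of the 2 responses did not pass the limit. RXRB, a nuclear receptor that can pair with NR4A1 and NR4A2, rose by 0.39 in TIGK (edgeR adjusted p = 0.000346) and 0.39 in HaCaT (edgeR adjusted p = 0.000243). IER5 and IER5L share the family domain of IER2. IER5 rose by 0.41 in TIGK and 0.35 in HaCaT on the log2 scale, the latter call being lost without HaCaT H2O2 replicate 2 (edgeR adjusted p = 0.0284, alternatives 1.91e-05 to 0.0284). IER5L fell in TIGK (-0.72, edgeR adjusted p = 5.95e-05), and its HaCaT value of -0.30 did not pass the limit (edgeR adjusted p = 0.0227).

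EGR4, the fourth EGR gene, was counted at 62.0, 45.6 and 39.7 normalized counts in TIGK control and 118, 122 and 139 in TIGK H2O2. In HaCaT it stood at 6.11, 0 and 7.90 in control and 2.23, 11.7 and 0 in H2O2 libraries. The TIGK groups did not overlap, but the response did not pass the limit (log2 fold change 1.36 (SE 0.438), edgeR adjusted p = 0.0208, alternatives 0.00014 to 0.165). After H2O2 it was lower in HaCaT than in TIGK (log2 ratio -4.78 (SE 0.599), edgeR adjusted p = 8.38e-07). The treated HaCaT libraries held 2, 10 and 0 reads, so the size of that ratio is poorly known, and it was -6.75 without HaCaT H2O2 replicate 2 and -4.18 without replicate 3. RASD2, the paralog of RASD1, was counted at 217, 260.2 and 218 in TIGK control and 107, 157 and 143 in TIGK H2O2, and at no more than 2 reads in any HaCaT library. Against a floor of 3 counts per library, RASD2 was at least 81.1-fold higher in untreated and at least 40.5-fold higher in treated TIGK. Between the untreated lines 1 of the 8 genes was higher in HaCaT and 4 were lower, against 29.1% and 30.8% of all genes tested.

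The signal route that leads to these genes, from RAF and ERK kinases to ELK, SRF, CREB and their coactivators, had members that moved in either direction. Of 28 genes 27 were tested. In TIGK 4 rose and 6 fell, against 10.2% and 12.9% of all genes tested. The median log2 fold change of the 27 there was -0.03 against 0.01 over all genes tested. In HaCaT 6 rose and 6 fell (18.9% and 15.2% of all genes), with a median of 0.03 against 0.04. CREM, which encodes a relative of CREB and short repressor forms made from an inducible promoter, rose in TIGK (0.54 (SE 0.13)) and in HaCaT (0.62 (SE 0.132), edgeR adjusted p = 0.000882). The TIGK call (edgeR adjusted p = 0.00344) was lost without TIGK control replicate 3 (0.0227) or TIGK H2O2 replicate 1 (0.0175), and over the alternatives ran from 0.000331 to 0.0227. CREB1 fell in TIGK (-0.40 (SE 0.0661), edgeR adjusted p = 0.000117) and in HaCaT (-0.54 (SE 0.0668), edgeR adjusted p = 3.84e-06), and the difference of the responses did not pass the limit (edgeR adjusted p = 0.374).

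RPS6KA5, which encodes the kinase MSK1 that acts on CREB and histone H3, fell in HaCaT (-0.77 (SE 0.11), edgeR adjusted p = 1.89e-05). In TIGK it also fell (-0.48 (SE 0.118), edgeR adjusted p = 0.00407), a call that was lost without TIGK control replicate 2 (0.0275), TIGK control replicate 3 (0.017), TIGK H2O2 replicate 1 (0.0249) or TIGK H2O2 replicate 2 (0.0178), with alternatives from 0.000842 to 0.0275. MAP2K2, which encodes a kinase that activates ERK, rose in HaCaT by 0.37 (edgeR adjusted p = 6.16e-05), and stood at 0.11 in TIGK (edgeR adjusted p = 0.164). CRTC1, a CREB coactivator, rose in TIGK by 0.48 (edgeR adjusted p = 0.00515), which was lost without TIGK control replicate 1 (0.0242) or 2 (0.0183) and when any TIGK H2O2 library was left out (0.0139, 0.0139 and 0.0122 for replicates 1, 2 and 3), with alternatives from 2.88e-06 to 0.0242. Its HaCaT value was 0.16 (edgeR adjusted p = 0.318). For MAP2K2 and CRTC1 the difference of the responses did not pass the limit either (edgeR adjusted p = 0.0503 and 0.279).

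Its paralog CRTC3 was the 1 gene of this route whose responses differed between the lines. It fell in TIGK from 1620.4 ± 118 to 1006 ± 29.2 normalized counts and stood at 1984 ± 115 and 1825 ± 166 in HaCaT (SD, n = 3). Over all genes 2.32% differed with a higher response in TIGK and 2.98% with a lower one. Between the untreated lines 11 of the 27 genes were higher in HaCaT and 5 lower, against 29.1% and 30.8% of all genes. RPS6KA5 (1.29) and RPS6KA3 (0.76) were at the upper end. RPS6KA2 (-0.79) and MAPK3, which encodes the kinase ERK1 (-0.79), were at the lower end. Between the treated lines 13 were higher and 8 lower, with 30.2% and 29.8% of all genes, or 60% together.

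Known target genes of EGR1 moved in both directions. Of the 14 genes listed 2 rose and 3 fell in TIGK, against 10.2% and 12.9% of all genes tested. The median log2 fold change there was -0.14 against 0.01 over all genes. In HaCaT 3 rose and 6 fell, against 18.9% and 15.2% of all genes. The median was 0.20 against 0.04, so the sign of the median and the majority of calls differed there. FN1, the gene of fibronectin, fell by about the same amount in both (-0.73 and -0.72), with an edgeR adjusted p of 2.35e-07 in TIGK and 2.3e-07 in HaCaT. HPSE, the heparanase gene, rose in HaCaT (0.50, edgeR adjusted p = 0.000165) and stood at -0.19 in TIGK (edgeR adjusted p = 0.0823).

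In 4 of the 14 target genes the responses themselves differed between the lines, 2 in each direction. Of all genes tested 2.32% differed with a higher response in TIGK and 2.98% with a lower one. ICAM1, an adhesion molecule, went from 35.1, 21.0 and 17.8 to 53.4, 60.6 and 51.3 normalized counts in HaCaT and from 982, 921 and 871 to 876, 874 and 892 in TIGK. The HaCaT rise of ICAM1 passed the limit (edgeR adjusted p = 0.000294) but was lost with the HaCaT groups fitted alone (0.0177), with alternatives from 4.45e-06 to 0.0177. Even after it HaCaT held far less of it than TIGK, with a log2 ratio of -4.00 (SE 0.146). F3, which encodes tissue factor and is among the best known EGR1 targets, fell in HaCaT from 55933 ± 2026 to 40629 ± 1081 and stood at 41321 ± 4026 and 45560.0 ± 1249 in TIGK (SD, n = 3). Between the untreated lines 5 of the 14 genes were higher in HaCaT and 7 lower (29.1% and 30.8% of all genes). Between the treated lines 4 were higher and 8 lower (30.2% and 29.8%). GDF15, a stress-induced cytokine, had at most 2 reads in any HaCaT library and was at least 25.2-fold higher in untreated and at least 27.9-fold higher in treated TIGK. FGF2, a growth factor gene, was lower in HaCaT in both states (log2 ratio -4.07 and -3.20), and FN1 was higher (1.88 and 1.89).

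The other immediate early genes moved mostly upward in both lines. Of 28 genes, 25 rose and 1 fell in TIGK, against 10.2% and 12.9% of all genes tested. The median log2 fold change there was 1.53 against 0.01 over all genes tested. In HaCaT 23 rose and 1 fell (18.9% and 15.2% of all genes), with a median of 0.89 against 0.04. FOS, a subunit of AP-1, went from 244, 246 and 318 to 26492, 18259.6 and 17189 normalized counts in HaCaT and from 941, 741 and 728 to 10261, 7920.1 and 10279 in TIGK. It had the largest log2 fold change of the list in HaCaT, 6.26 (SE 0.178), with an edgeR adjusted p of 5.2e-15. FOSB, its paralog, followed with 4.63 (SE 0.126) (edgeR adjusted p = 3.55e-15), against 3.97 in TIGK. GEM, a small GTPase gene, was the one that fell in both lines (-1.09 in TIGK and -1.32 in HaCaT).

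In TIGK the largest rise of the list was that of CTGF, a matricellular protein and known target of YAP and SRF, from 349 ± 25.1 to 10666 ± 457 normalized counts (SD, n = 3; log2 fold change 4.93 (SE 0.0787), edgeR adjusted p = 1.23e-18). KLF2, a zinc finger factor, rose by 4.04 (SE 0.16) there (edgeR adjusted p = 7.48e-13), against 3.44 in HaCaT. The responses of 20 of the 28 genes differed between the lines, 13 with the larger value in TIGK and 7 with the larger value in HaCaT, while 5.3% of all genes tested differed. Like the members, the list was thus split in which line responded more.

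FOS resembled EGR1 in its levels before H2O2. Untreated HaCaT held less FOS than untreated TIGK (log2 ratio -1.58 (SE 0.171)) and treated HaCaT held more (1.12 (SE 0.136)). ATF3, a stress-induced CREB relative, was at 1932, 1710.5 and 1534 normalized counts in TIGK control and 5017, 4869 and 5317 in TIGK H2O2, and at 476, 454 and 465 in HaCaT control and 6115, 4729.9 and 5352 in HaCaT H2O2. As with EGR1, the untreated lines did not overlap and the treated ones did. DUSP1, a phosphatase that switches off MAP kinases, was lower in HaCaT before H2O2 (log2 ratio -3.16, edgeR adjusted p = 5.64e-15) and stayed lower after it (-2.27). PLAUR and FOSL1 were the genes of the list with the largest ratios in favour of untreated HaCaT (1.44 and 1.3). Between the untreated lines 12 of the 28 genes were higher in HaCaT and 10 lower (29.1% and 30.8% of all genes). Between the treated lines 7 were higher and 16 lower (30.2% and 29.8%).

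**Figure D5:**
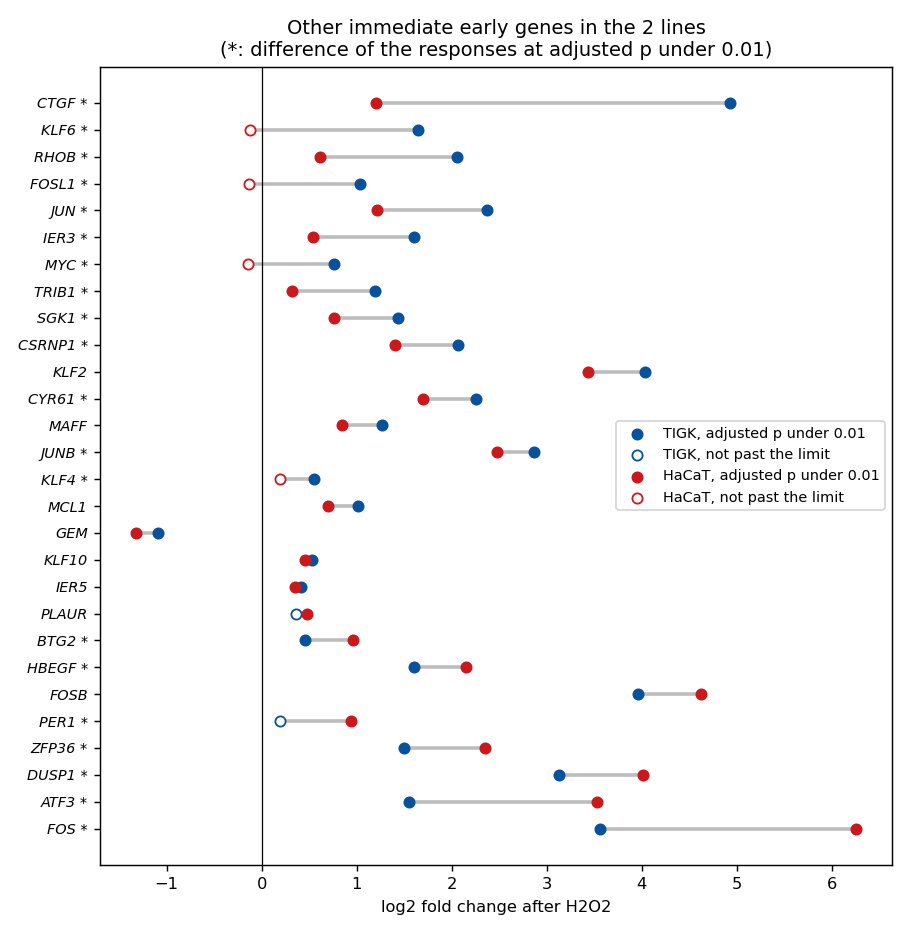
Log2 fold change after H2O2 of the 28 other immediate early genes in TIGK (blue) and HaCaT (red), ordered by the difference of the responses, with filled points for an adjusted p under 0.01. CTGF lies at 4.93 in TIGK and 1.20 in HaCaT, FOS at 3.56 and 6.26, and GEM is below 0 in both.

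Across the 12 libraries, the genes outside the 9 members that were most like EGR1 by Pearson correlation of log2 CPM, among 12599 genes ranked, were PPP1R15A (r = 0.996), ZFP36 (r = 0.988) and FOS (r = 0.987). Those most like NR4A1, again without the members, were TOB1 (r = 0.990), CSRNP1 (r = 0.985) and KIF23 (r = 0.985). For RASD1 they were ATF3 (r = 0.960), PMAIP1 (r = 0.950) and EIF1 (r = 0.948). All of these points share the 4 groups, so the values describe the pattern of the group means and carry no test. Among the members NR4A1 and IER2 were most alike (r = 0.991), followed by EGR1 and NR4A1 (r = 0.970). RASD1 had the same r with ARC and with EGR1 (0.896) and was nearly as like EGR2 (r = 0.865), and NR4A3 had a negative r with all members but EGR3 (r = 0.209).

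By their reference transcripts in GENCODE v44, which covered 80% of the genes tested, most members were short genes with few exons. EGR1, EGR2, EGR3, IER2 and RASD1 have 2 exons each, ARC 3, NR4A1 7, and NR4A2 and NR4A3 8, where the median of all genes was 9. RASD1 spans 1959 bases, ARC 3431 and EGR1 3825, against a median of 27960. NR4A3 was the exception at 45007 bases, and 64.4% of genes span no more than that. The pentamer ATTTA, the core of AU-rich elements that shorten the life of messengers, occurred 5.37 times per kb of 3′ UTR in NR4A1 (3 copies), 3.31 in NR4A3 (10), 3.06 in NR4A2 (4) and 2.91 in RASD1 (2), against a median of 1.69 per kb over all genes. EGR2 (1.65, 2 copies), EGR3 (1.07, 3) and EGR1 (0.818, 1) lay below that median. It was found 0 times in IER2 and ARC, and 27.1% of all genes had no copy. Overlapping genes on the opposite strand of EGR3, NR4A1 and IER2 held at most 16, 32 and 0 reads in any library. Whether the counting used strand is not given in the sources used here, so reads shared by such a pair cannot be told apart.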

How the data were processed

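The 12 libraries were assigned to groups by cell line and treatment as the labels give them. The labels write the formula of the agent with a last digit that follows the replicate number, while the treatment protocol and the methods give 5 mM H2O2 for 3 h throughout. The values are raw counts of reads on 58735 genes of GRCh38, as the authors deposited them, without normalization. The methods and the submitters' processing notes name HISAT2 2.0.5, StringTie 1.3.3b and featureCounts 1.5.0-p3, and another label names HISAT2 2.0.0 and FPKM values, but the values used are whole-number counts. Strand setting, annotation release and treatment of multi-mapped reads are not given in the sources used here. Tables of the authors' own fold changes and p-values were not used. The count table held 0 unused columns of sample values and 0 rows without a gene.

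Genes whose raw counts averaged 10 or more over the libraries entered the test, made with edgeR 4.0.16 in R 4.3.3 (limma 3.58.1), by the quasi-likelihood F-test after TMM normalization, with 1 mean per group over all 12 libraries (common dispersion 0.0073, prior df 10.4). P-values were adjusted by the Benjamini-Hochberg method across the 16618 genes, with a limit of 0.01. The model was tested on simulated counts. "Rose", "fell" and "called" mean past that limit. Normalized counts are counts scaled to the mean library size with the TMM factors. Each SE was taken from the test, as the absolute log2 fold change divided by the square root of its F statistic. The SE of a difference of responses was thus not combined from the SEs of its parts. Intervals are 95% intervals of the edgeR estimate built from these SEs, and log2 CPM used a prior count of 2. The total counts per library (30426401 to 49034244) leave the spread between replicates as the main limit on precision for well counted genes. Counting noise weighs more for genes with few reads, such as NR4A3 with 33 to 105 reads per library.

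The members and all gene lists were chosen with earlier results of these data known. The planned test of all members between the untreated lines is given for 5 of them, since the rises for which the other 4 were chosen use the same control libraries. The lists were written by hand from general knowledge. Named from each list and comparison were up to 2 genes with the largest positive and 2 with the largest negative log2 fold change past the limit, where the higher group reached 100 normalized counts. From the EGR1 target list 3 such genes are counted but not reported here. NAB1, EGR4, RASD2, GDF15, ICAM1, F3, ATF3, DUSP1, FOS, FOSB, KLF2, KLF6, CTGF, NAB2, IER5L, CREB1, MAP2K2, CRTC1, CRTC3 and HPSE were also named in other comparisons, chosen after their values were seen. Motif searches used RefSeq promoters of GRCh38.p14, and gene structures GENCODE v44. Alternatives were DESeq2 1.42.0, RLE factors, library size alone, no filter on low counts, the groups compared alone, a limit of 0.05, a replicate block and leaving out each library. Sequences were read and plots made in Python 3.11.15 (matplotlib 3.10.9).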

Additional observations from a re-analysis of the deposited data

Results flagged for a closer look

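By edgeR's interaction test at an adjusted p under 0.01, 15 of the 75 list genes tested had a higher log2 fold change in TIGK and 10 a lower one. Over all genes tested the shares were 2.32% and 2.98%. The 8 genes below had the largest differences of their lists by the naming rule, without genes not reported here. DUSP1 and FOSL1 are among those that also differed and are not listed. Groups of 3 libraries are too small for a test of single outlying libraries. Values below are log2 fold changes, TIGK minus HaCaT.

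CTGF differed by 3.73 (SE 0.109) (edgeR adjusted p = 7.11e-14), with 4.93 in TIGK and 1.20 in HaCaT. KLF6, a zinc finger factor, differed by 1.77 (SE 0.11) (edgeR adjusted p = 7.43e-09), and its HaCaT value of -0.12 did not pass the limit, except without HaCaT H2O2 replicate 1. FOS differed by -2.70 (SE 0.218) (edgeR adjusted p = 1.69e-07) and ATF3 by -1.98 (SE 0.126) (edgeR adjusted p = 7.72e-09), both with the larger rise in HaCaT.

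Among EGR1 targets, F3 differed by 0.60 (SE 0.0857) (edgeR adjusted p = 0.000134), with 0.14 in TIGK and -0.46 in HaCaT. HPSE differed by -0.69 (SE 0.121) (edgeR adjusted p = 0.000951). ICAM1 differed by -1.18 (SE 0.236) (edgeR adjusted p = 0.00306). The ICAM1 call was lost without TIGK control replicate 2 (0.0105), TIGK H2O2 replicate 2 (0.0123) or 3 (0.0117), HaCaT control replicate 2 (0.013) or 3 (0.0122) or HaCaT H2O2 replicate 2 (0.0172), and its edgeR adjusted p ran from 5.7e-05 to 0.0172 over the alternatives.

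CRTC3, from the signal route, differed by -0.57 (SE 0.108) (edgeR adjusted p = 0.00203), with -0.69 in TIGK and -0.12 in HaCaT. Without TIGK H2O2 replicate 2 (0.0126) or 3 (0.0106) or HaCaT H2O2 replicate 2 (0.0106) the edgeR adjusted p missed the limit, and over the alternatives it ran from 0.000108 to 0.0126.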

How the results depend on the processing

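No member value other than the treated EGR1 ratio changed direction in any alternative. The members' log2 ratios and the 89 list gene values examined, 22 of them added after seeing the data, kept their direction under DESeq2, RLE factors, library size alone and no filter. When 1 library was left out, the CRTC1 response of HaCaT, which had not passed the limit, ranged from -0.0425 (without HaCaT H2O2 replicate 2) to 0.292, and the treated EGR1 ratio also turned. List gene values that missed the limit and passed in an alternative, a limit of 0.05 included, were those of EGR4 in TIGK (6 alternatives), NAB2 in TIGK (3), IER5L in HaCaT (3), F3 in TIGK (2) and KLF6 in HaCaT (1). Counts of called genes moved by over 1.5 times as follows. For genes higher in treated TIGK (1699), the count was 2571 without a filter on low counts and 2877 at a limit of 0.05. For a higher log2 fold change in TIGK than in HaCaT (385), it was 689 with DESeq2, 769 without a filter and 847 at a limit of 0.05. For a higher log2 fold change in HaCaT than in TIGK (496), it was 1172 at a limit of 0.05 and 326 with a replicate block. List genes that fell in TIGK numbered 11, and 17 at a limit of 0.05. Members higher in untreated HaCaT numbered 1, and 2 at a limit of 0.05, where NR4A3 was added.

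Leaving out 1 library gave 2061 to 3272 genes higher in treated HaCaT (2061 without HaCaT H2O2 replicate 2). It gave 266 to 704 genes with a higher log2 fold change in TIGK than in HaCaT (704 without HaCaT H2O2 replicate 1). Genes with a higher one in HaCaT than in TIGK numbered 186 to 637. The last count was 222 without TIGK control replicate 2, 186 and 191 without TIGK H2O2 replicates 2 and 3, 294 and 300 without HaCaT control replicates 1 and 2, and 211 without HaCaT H2O2 replicate 2. List genes with a higher log2 fold change in HaCaT than in TIGK ranged from 6 to 12 (10 with all libraries). They numbered 6 without TIGK H2O2 replicate 2 or 3 or HaCaT H2O2 replicate 2. Members higher in untreated HaCaT ranged from 1 to 2, and NR4A2 was the one added, without TIGK control replicate 3. The causes were not tested.

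Samples with the same replicate number did not deviate together. Over 18 same-numbered pairs the correlation of deviations ran from -0.121 to 0.0257. When these correlations were averaged over the other groups by replicate number, a library's own number had the highest mean in 2 of 12 libraries. With the number as a replicate block, IER2 in the untreated lines had a log2 ratio of -0.26 and an edgeR adjusted p of 0.0115, which missed the limit, and no other call changed among the members in that comparison or the 89 list gene values examined. For ARC and RASD1 in untreated HaCaT, 3 to 21 reads per library limit how well their fold changes are known.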
